A study of Mus musculus with 8 samples.

Results

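The *Cyp2c* epoxygenases were followed here in the livers of 8 male *Apoe-/-* mice, a strain without apolipoprotein E whose cholesterol-rich lipoproteins are cleared slowly. All animals ate the cholesterol-rich diet named Western in the labels, and received either vehicle (n = 4) or isoginkgetin (ISOGK, a biflavonoid of Ginkgo biloba; n = 4). ISOGK went into the peritoneum at 20 mg/kg each day for 8 weeks. No age is given for these mice, no group without the diet or with intact *Apoe* is analysed here, and nothing in the labels says which mice shared a cage or a day. The family was defined by name as 10 genes, of 16540 gene symbols counted: *Cyp2c29*, *Cyp2c37*, *Cyp2c38*, *Cyp2c39*, *Cyp2c40*, *Cyp2c44*, *Cyp2c50*, *Cyp2c54*, *Cyp2c55* and *Cyp2c68*. Of these, 9 were counted under their own symbol, and *Cyp2c44* under *Cyp2c23*, for which RefSeq gives *Cyp2c44* as a synonym. All 10 had enough reads to be tested, *Cyp2c55* through its vehicle libraries alone.

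Cytochrome P450 enzymes of the *Cyp2c* family sit in the endoplasmic reticulum, mostly of hepatocytes. Several of them are epoxygenases, which turn arachidonic acid into epoxyeicosatrienoic acids (EETs), lipid signals that relax vessels and dampen inflammation, while others mainly hydroxylate it. They draw electrons from P450 reductase (*Por*) and cytochrome b5, need haem, and compete for arachidonate with some omega-hydroxylases of the *Cyp4a* and *Cyp4f* families. Soluble epoxide hydrolase (*Ephx2*) converts EETs to less active diols. Their transcription in liver is known to respond to the receptors CAR (*Nr1i3*) and PXR (*Nr1i2*) and to HNF4A.

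The genes other than *Cyp2c44* lie in a cluster on mouse chromosome 19 (GRCm38, GENCODE M21). *Cyp2c55* (chr19:39007019-39042693, plus strand) stands at the proximal end of the cluster and *Cyp2c50* (chr19:40089688-40113950, plus strand) towards its distal end, whereas *Cyp2c44* (chr19:44005022-44029208, minus strand) lies apart on the same chromosome. The promoters of the 3 close copies *Cyp2c29*, *Cyp2c38* and *Cyp2c39*, and those of *Cyp2c55* and *Cyp2c68*, are shown because these genes include 3 that fell with ISOGK and, with *Cyp2c39*, the member whose values went the other way. Each runs 5′ to 3′ on the gene's own strand, from 250 bases before to 50 bases after the RefSeq start (GRCm38.p6). The capitals mark exact matches, on either strand, of the letters searched. AGGTCA is the hexamer that many nuclear receptors bind, and the letters AGTTCA are a variant of it found in sites of CAR and PXR. CAAAGTCCA is a core bound by HNF4, a TATA box was searched as TATAAA, and the palindrome of C/EBP factors as TTGCGCAA. No match overlapped another in these sequences.
Cyp2c29 (chr19:39286835-39287134, plus): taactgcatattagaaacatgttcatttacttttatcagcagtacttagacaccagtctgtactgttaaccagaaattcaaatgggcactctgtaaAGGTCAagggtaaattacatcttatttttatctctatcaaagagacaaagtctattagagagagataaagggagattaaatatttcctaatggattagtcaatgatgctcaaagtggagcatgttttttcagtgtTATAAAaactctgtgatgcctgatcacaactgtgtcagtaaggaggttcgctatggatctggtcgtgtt
Cyp2c38 (chr19:39463026-39463325, minus): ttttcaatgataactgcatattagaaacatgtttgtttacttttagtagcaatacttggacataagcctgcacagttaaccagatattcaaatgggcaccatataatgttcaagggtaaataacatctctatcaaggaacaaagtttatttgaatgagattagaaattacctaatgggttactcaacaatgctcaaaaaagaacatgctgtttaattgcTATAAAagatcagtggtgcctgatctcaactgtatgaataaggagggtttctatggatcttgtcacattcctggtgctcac
Cyp2c39 (chr19:39510572-39510871, plus): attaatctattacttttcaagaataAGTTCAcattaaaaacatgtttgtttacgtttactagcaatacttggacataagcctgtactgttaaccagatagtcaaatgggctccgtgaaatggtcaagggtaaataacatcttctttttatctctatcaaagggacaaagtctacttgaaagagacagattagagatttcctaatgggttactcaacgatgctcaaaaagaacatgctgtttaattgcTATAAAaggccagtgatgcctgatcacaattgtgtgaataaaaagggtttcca
Cyp2c55 (chr19:39006769-39007068, plus): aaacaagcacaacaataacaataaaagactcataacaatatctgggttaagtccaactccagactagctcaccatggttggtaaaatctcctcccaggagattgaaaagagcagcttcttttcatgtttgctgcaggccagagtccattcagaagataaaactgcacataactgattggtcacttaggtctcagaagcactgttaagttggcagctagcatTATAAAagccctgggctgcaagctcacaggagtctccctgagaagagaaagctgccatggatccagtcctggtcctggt
Cyp2c68 (chr19:39741052-39741351, minus): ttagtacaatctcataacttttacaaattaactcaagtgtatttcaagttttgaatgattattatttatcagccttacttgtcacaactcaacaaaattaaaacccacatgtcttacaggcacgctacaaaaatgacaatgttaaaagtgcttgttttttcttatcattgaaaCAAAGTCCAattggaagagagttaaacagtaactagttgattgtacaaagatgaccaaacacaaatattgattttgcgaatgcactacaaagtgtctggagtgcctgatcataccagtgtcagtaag

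The RefSeq table held 9 promoters for 8 of the 10 members, with 2 for *Cyp2c39*, and none for *Cyp2c54* or *Cyp2c44*. TATAAA was found in 5 of the 9, against 13.6% of all 32851 promoters in that table, and its first base stood 29 bases upstream in *Cyp2c55* (position -29), at -31 in *Cyp2c38*, at -19 in *Cyp2c29*, at -3 in *Cyp2c39* and at 40, after the start, in *Cyp2c40*. CAAAGTCCA was found in 2 of the 9, *Cyp2c68* at -77 and *Cyp2c40* at -45, against 0.475% of all promoters. Among the other *Cyp2c* genes it stood in *Cyp2c67* at -125, *Cyp2c69* at -75 and *Cyp2c70* at -64, and in *Cyp2c65*, which is not among the symbols counted, at -116. AGGTCA was found in 2 of the 9 (16.3% of all promoters), in *Cyp2c29* at -154 and in the second *Cyp2c39* promoter at -25. That second promoter (chr19:39347096-39347395) lies upstream of the GENCODE gene *Cyp2c39* (chr19:39510862-39568529), with *Cyp2c38* between them. Without it, AGGTCA stood in *Cyp2c29* alone among the members. AGTTCA was found in 3 of the 9 (14.0% of all), in *Cyp2c39*, *Cyp2c40* and *Cyp2c50*, and TTGCGCAA in 0 of the 9 (0.183% of all). Both *Cyp2c68*, which fell, and *Cyp2c40*, which did not pass the test, held the HNF4 letters, and *Cyp2c37* held none of the 5 motifs.

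Reads of such close copies can be split or shared when genes are counted, so the likeness of the genes bears on every value below. The coding sequences fell into 3 tight groups. *Cyp2c37*, *Cyp2c50* and *Cyp2c54* were 95.1% to 96.1% identical. *Cyp2c38* and *Cyp2c39* were 94.2% identical, with *Cyp2c29* at 89.1% and 89.5% to them. *Cyp2c40* and *Cyp2c68* were 92.6% identical and belong with *Cyp2c67* and *Cyp2c69*, which are 97.7% identical to each other. *Cyp2c55* was at most 77.4% identical to any other *Cyp2c* gene counted, and *Cyp2c44* at most 64.9%. The share of 50-base windows of the transcript that also occur in a transcript of another gene was 0% for *Cyp2c44*, 1.13% for *Cyp2c55* and 2.08% for *Cyp2c29*. It was 7.45% for *Cyp2c38*, 12.05% for *Cyp2c39*, 25.7% for *Cyp2c54*, 30.1% for *Cyp2c37*, 30.7% for *Cyp2c50*, 43.3% for *Cyp2c68* and 72.1% for *Cyp2c40*.

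**Figure D1:**
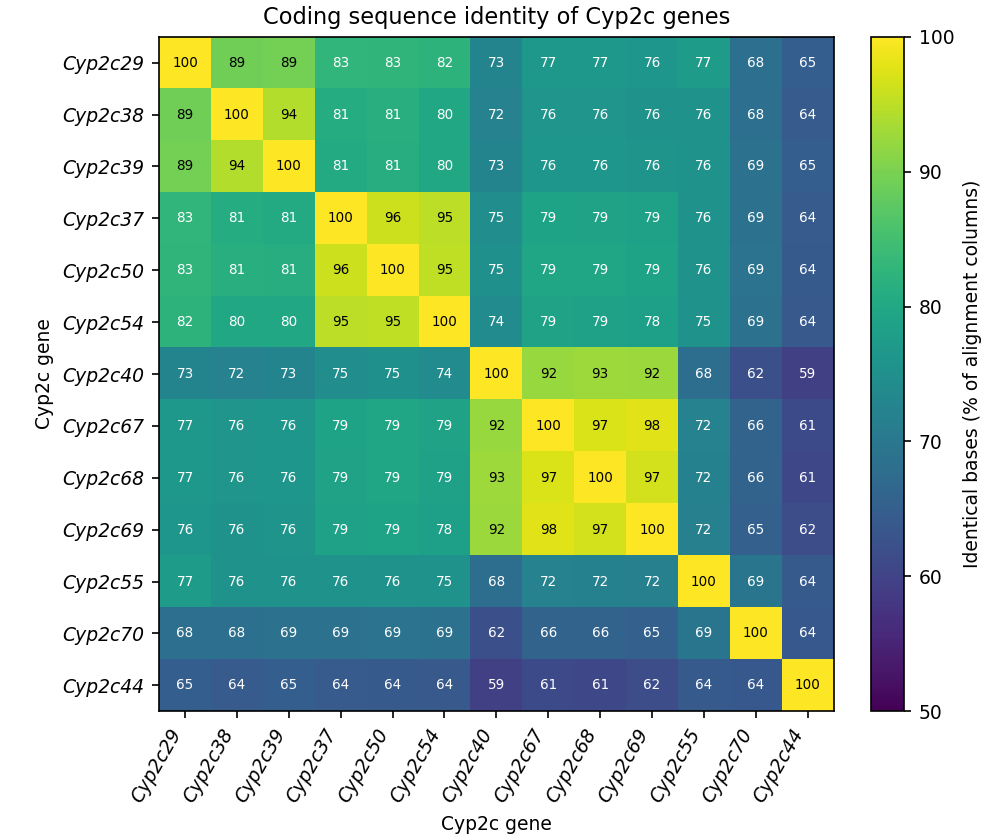
Identity of GENCODE M21 coding sequences (percent of alignment columns with the same base, colour and number) between the 10 members and the 3 other Cyp2c genes counted, on both axes. The 3 blocks of high identity are the close copies named in the text, and Cyp2c55, Cyp2c70 and Cyp2c44 stand outside them.

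How little separates the tightest group is seen in its letters. Of 1470 coding bases, 98 alignment columns differ among *Cyp2c37*, *Cyp2c50* and *Cyp2c54*. The 60 bases richest in differences, coding bases 791 to 850, hold 13 of them, marked in capitals.
Cyp2c37: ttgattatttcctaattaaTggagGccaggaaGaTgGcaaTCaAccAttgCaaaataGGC
Cyp2c50: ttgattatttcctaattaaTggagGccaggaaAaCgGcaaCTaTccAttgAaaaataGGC
Cyp2c54: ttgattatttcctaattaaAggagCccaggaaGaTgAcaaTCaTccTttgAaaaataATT

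The longest stretch shared by all 3 genes is 89 bases (coding bases 187 to 275), and a read lying wholly within it has the same letters for each.
Cyp2c37, Cyp2c50 and Cyp2c54: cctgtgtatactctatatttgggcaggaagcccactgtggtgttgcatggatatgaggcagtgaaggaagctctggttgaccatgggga

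Between 19605286 and 24461854 reads per vehicle library and 17457106 and 21626399 per ISOGK library were counted on genes. *Apoe*, deleted in both groups, had 3252 to 6489 counts per library, so the counts do not show the deletion and the genotype rests on the labels. Levels are given as CPM, that is, counts relative to the library's total multiplied by edgeR's TMM factor. These factors lay between 1.02 and 1.09 for vehicle and between 0.883 and 1.01 for ISOGK. Albumin, transthyretin and the other hepatocyte markers held a summed level of 164360 to 178870 CPM with vehicle and 151730 to 210250 CPM with ISOGK, and 0 of 8 passed edgeR's test in either direction (1 at an unadjusted p under 0.05, and 1 by DESeq2). Vehicle 4 stood apart in skeletal muscle genes, with the highest count of all 10 markers and 74.1 CPM in sum against at most 0.681 CPM in any other library. ISOGK 4 stood apart in 3 markers of hepatocytes and Kupffer cells. Fibrinogen beta (*Fgb*) was at 16848 CPM there and at 5799 to 7369 CPM in the other 7 libraries, and haptoglobin (*Hp*), an acute-phase protein, at 11163 CPM against 3759 to 4851 CPM. *Vsig4*, a complement receptor of Kupffer cells, was at 5.34 CPM against 75.05 to 104 CPM. Since the tissue is bulk liver, fewer cells of a type and less RNA per cell cannot be told apart.

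Taken as the sum of its transcripts, the *Cyp2c* family was less abundant with ISOGK. Summed over the 10 members, the vehicle libraries 1 to 4 held 3230, 3476, 2975 and 3053 CPM and the ISOGK libraries 1 to 4 held 2273, 2561, 2083 and 1918 CPM. Every ISOGK library lay below every vehicle library. The mean was 3184 ± 222 CPM (SD, n = 4) with vehicle and 2209 ± 276 CPM (SD, n = 4) with ISOGK, a difference of -30.6%. Scaled by library size alone, without TMM factors, it was -36.4%. ISOGK 4, which stood apart in *Fgb*, *Hp* and *Vsig4*, had the lowest sum, and the difference between the groups' mean log2 sums was -0.53 with it and -0.47 without it. Without ISOGK 4, 3 members were lower, *Cyp2c29*, *Cyp2c44* and *Cyp2c54*. The part of these marker values in the *Cyp2c* levels was not tested. The members took 0.320% to 0.359% of all counts with vehicle and 0.169% to 0.246% with ISOGK.

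Of the 10 members, 5 were lower with ISOGK at an adjusted p under 0.05 (edgeR's quasi-likelihood test, Benjamini-Hochberg over 12307 genes): *Cyp2c44*, *Cyp2c29*, *Cyp2c54*, *Cyp2c55* and *Cyp2c68*. By the same test 423 of all genes, 3.44%, were lower. None was higher, that is 0 of 10 beside 4.11% of all genes (0 also by DESeq2 and limma-voom, and 1, *Cyp2c39*, at an unadjusted p under 0.05), and the other 5 did not pass. Of the 10 log2 fold changes 8 were negative, with a median of -0.41, against a median of 0.0018 over all genes tested. The low-count limit was 0.471 CPM by library size alone, before TMM factors. *Cyp2c55* reached it in 4 of 4 vehicle and 0 of 4 ISOGK libraries. A gene that enters the test in this way had to be lower with ISOGK, so its difference is given as a description. The other 9 members reached the limit in both groups, and of these 4 were lower. The median of their 9 log2 fold changes was -0.41. Of these 9, 0 were lower past a log2 fold change of -1, as were 0.626% of all genes, whereas *Cyp2c55* was past it. At an unadjusted p under 0.05 stood 9 of the 10, with 8 lower (*Cyp2c55* among them) and 1 higher. The share of all genes at that p was not counted, so these numbers are a description. In 6 members, *Cyp2c55* among them, every ISOGK library was below every vehicle library, as in 7.36% of all genes. In *Cyp2c39* every ISOGK library was above, and the share of all genes with that order was not counted. The groups overlapped in *Cyp2c38*, *Cyp2c40* and *Cyp2c50*. Scaling by library size alone shifted the median of all genes to -0.13, turned the calls over all genes from 423 lower and 506 higher into 804 lower and 262 higher, and gave 6 members lower. With a library left out the number of members lower was 2 (without vehicle 2 or vehicle 4), 3 (without vehicle 1, vehicle 3, ISOGK 1, ISOGK 2 or ISOGK 4) or 5 (without ISOGK 3). *Cyp2c55* was among the 6 with library size alone, and among those lower without vehicle 3 or ISOGK 3. Its place in these counts is a description too.

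**Figure D2:**
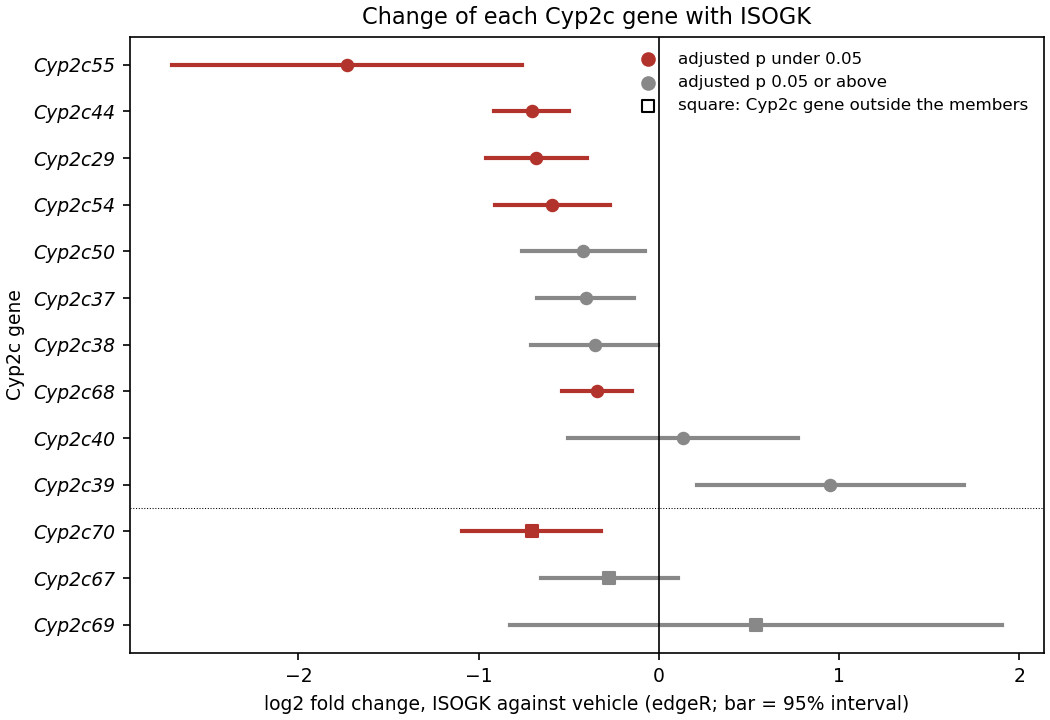
Log2 fold change of each Cyp2c gene, ISOGK against vehicle (x axis; point, edgeR estimate; bar, 95% interval; n = 4 per group), for the 10 members (circles) and the other 3 Cyp2c genes counted (squares). Red marks an adjusted p under 0.05. Of the members 5 are red and all 5 lie left of 0, while Cyp2c39 (0.95) and Cyp2c40 (0.13) lie to the right. Cyp2c55, 1 of the 5, entered the test through its vehicle libraries alone and had to be lower.

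*Cyp2c44*, an epoxygenase studied mostly in kidney and liver, had the smallest adjusted p of the 10. Its levels in vehicle libraries 1 to 4 were 271, 280, 302 and 285 CPM, and in ISOGK libraries 1 to 4 they were 188, 189, 161 and 160 CPM. The groups were far apart relative to their spread, with means of 284 ± 13.1 and 174 ± 16.4 CPM (SD, n = 4 each). The log2 fold change was -0.71 ± 0.096 (SE, edgeR's adjusted p = 0.00178), and the mean fell by 38.7%. The call held in all 16 alternative analyses, with an adjusted p of at most 0.00849, and no 50-base window of this transcript occurs in another gene.

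*Cyp2c29*, the member with the highest mean in vehicle-treated liver and a producer of EETs known to be induced through CAR, also fell. The vehicle libraries held 890, 1054, 860 and 1007 CPM and the ISOGK libraries 475, 714, 611 and 577 CPM. The highest ISOGK library stayed below the lowest vehicle library, and ISOGK 1 was the lowest. Its mean went from 953 ± 92.5 to 594 ± 98.4 CPM (SD, n = 4 each), a log2 fold change of -0.68 ± 0.13 (SE, edgeR's adjusted p = 0.009), and the call held in all 16 alternatives (adjusted p up to 0.0394). Its close copies did not pass the test. *Cyp2c38*, also an arachidonate epoxygenase, was at 33.2, 44.3, 43.7 and 51.1 CPM with vehicle and 33.2, 27.6, 44.1 and 29.8 CPM with ISOGK, with overlap (log2 fold change -0.36 ± 0.16, SE, edgeR's adjusted p = 0.202, or 0.0382 without ISOGK 3).

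*Cyp2c39*, known for hydroxylating retinoic acid, was the scarce copy of this group, with 2.26, 2.69, 0.701 and 1.74 CPM in the vehicle libraries and 2.89, 3.48, 4.86 and 3.04 CPM in the ISOGK libraries. It was the sole member with all ISOGK values above all vehicle values. These rest on 18 to 68 counts per vehicle library and 58 to 86 per ISOGK library. The log2 fold change of 0.95 ± 0.34 (SE) did not pass the test (edgeR's adjusted p = 0.113), nor did it in any of the 16 alternatives (0.057 to 0.202). The ratio of *Cyp2c39* to *Cyp2c38* counts, in which library scaling cancels, was 0.016 to 0.0681 with vehicle and 0.0871 to 0.126 with ISOGK, without overlap, and the ratio to *Cyp2c29* was 0.000815 to 0.00255 and 0.00488 to 0.00796. Summed to 1 feature, *Cyp2c29*, *Cyp2c38* and *Cyp2c39* fell by 0.66 on the log2 scale (edgeR's adjusted p = 0.00919).

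**Figure D3:**
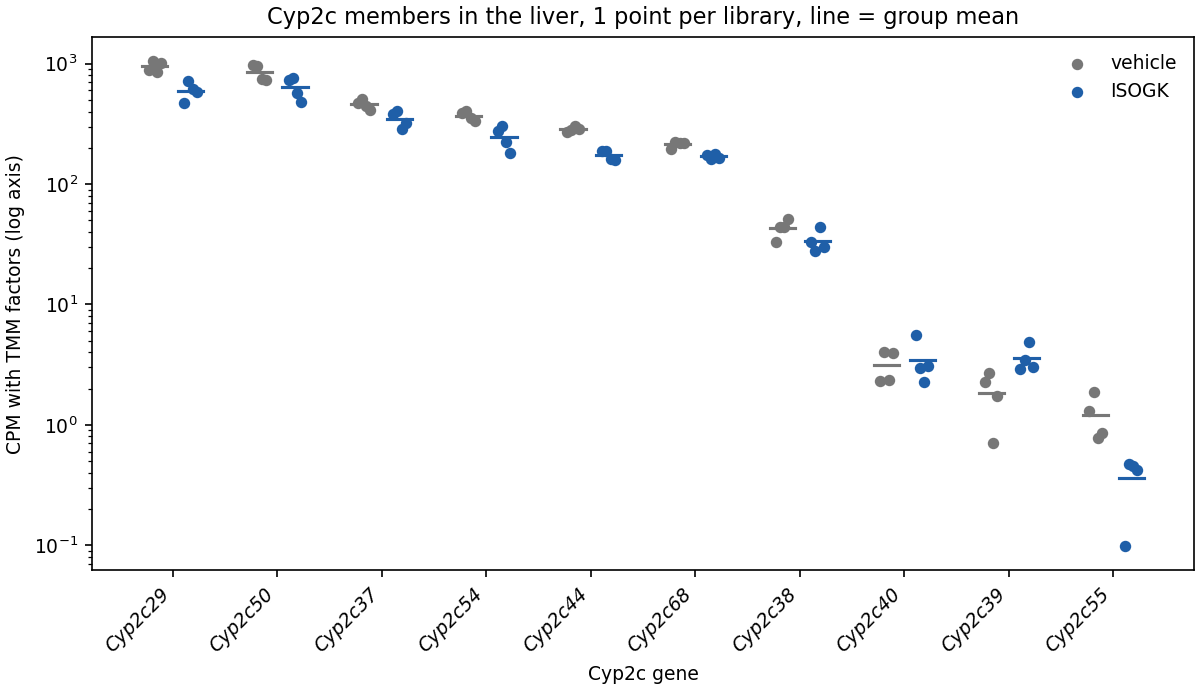
Level of each Cyp2c member in each library (y axis, CPM with TMM factors, log scale; grey, vehicle; blue, ISOGK; n = 4 each), with lines at the group means and genes in order of their vehicle mean. Blue points lie below grey ones in 6 members, above them in Cyp2c39, and among them in Cyp2c38, Cyp2c40 and Cyp2c50.

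The group of *Cyp2c37*, *Cyp2c50* and *Cyp2c54* holds a further hepatic arachidonate hydroxylase, *Cyp2c37*, and the epoxygenases *Cyp2c50* and *Cyp2c54*, which also act on linoleic acid. Of the 3, *Cyp2c54* fell, from 393, 405, 352 and 336 CPM with vehicle to 275, 304, 225 and 182 CPM with ISOGK. The groups did not overlap, and ISOGK 4 was lowest. The log2 fold change was -0.59 ± 0.15 (SE, edgeR's adjusted p = 0.0322). The call was lost without any 1 of the 4 vehicle libraries or without ISOGK 3 (adjusted p up to 0.105, without vehicle 2). *Cyp2c37* had 410 to 509 CPM with vehicle and 284 to 401 CPM with ISOGK, again without overlap, but its log2 fold change of -0.41 ± 0.12 (SE) gave an adjusted p of 0.0674 by edgeR. It passed by DESeq2 (0.0236) and with library size alone (0.0226). *Cyp2c50* overlapped, with 738 to 967 CPM and 480 to 758 CPM (-0.42 ± 0.16, SE, edgeR's adjusted p = 0.126). The sum of the 3 had a log2 fold change of -0.45 and an adjusted p of 0.0744 by edgeR. It too passed by DESeq2 (0.0302) and with library size alone (0.0337). The ratio of *Cyp2c54* to *Cyp2c50* counts was 0.406 to 0.471 with vehicle and 0.373 to 0.401 with ISOGK, without overlap, whereas those of *Cyp2c50* and of *Cyp2c54* to *Cyp2c37* overlapped between the groups.

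*Cyp2c68* was the member with the smallest fall that passed the test. Its levels were 196, 225, 221 and 221 CPM with vehicle and 176, 160, 179 and 163 CPM with ISOGK. All ISOGK values were below all vehicle values, and vehicle 1 was the lowest of its group. The log2 fold change was -0.34 ± 0.089 (SE, edgeR's adjusted p = 0.0377), and the call was lost without vehicle 2, 3 or 4 or ISOGK 1, 2 or 4 (adjusted p up to 0.119, without vehicle 2). *Cyp2c40*, its copy that mainly hydroxylates arachidonate, had only 2.31 to 3.995 CPM with vehicle and 2.26 to 5.54 CPM with ISOGK, at a log2 fold change of 0.13 ± 0.29 (SE, edgeR's adjusted p = 0.822), which became -0.19 without ISOGK 1. With *Cyp2c67* and *Cyp2c69* added, the sum of this group had a log2 fold change of -0.30 and an adjusted p of 0.148 by edgeR (0.0268 without ISOGK 1).

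*Cyp2c55*, known also from the colon and inducible through CAR and PXR, was scarce and had the log2 fold change of the greatest size among the 10. Its levels were 1.30, 1.86, 0.779 and 0.849 CPM with vehicle and 0.0981, 0.475, 0.452 and 0.419 CPM with ISOGK, without overlap. They rest on 19 to 47 counts per vehicle library and 2 to 9 per ISOGK library, with the lowest in ISOGK 1. The log2 fold change was -1.73 ± 0.45 (SE, 95% interval -2.70 to -0.76, edgeR's adjusted p = 0.0376). The call was lost without vehicle 1, 2 or 4 or ISOGK 1, 2 or 4, and by limma-voom, with an adjusted p of at most 0.13 (without vehicle 2). Since it entered the test through the vehicle libraries alone, these values are no support for the count of members lower. For each of *Cyp2c29*, *Cyp2c37*, *Cyp2c39*, *Cyp2c44*, *Cyp2c54* and *Cyp2c68* a two-sided exact permutation test on log2 CPM gave p = 0.0286. This is the smallest p that 4 against 4 allow. Any gene whose groups do not overlap gets it, so it only restates the separations given above. The same test gave 0.114 for *Cyp2c50*, 0.143 for *Cyp2c38* and 0.857 for *Cyp2c40* (two-sided exact permutation test).

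Levels of different genes were compared as CPM per kilobase of transcript. With vehicle the order of mean levels was *Cyp2c29* (534), *Cyp2c50* (469), *Cyp2c37* (252), *Cyp2c54* (208), *Cyp2c44* (148), *Cyp2c68* (125), *Cyp2c38* (15.01), *Cyp2c40* (1.75), *Cyp2c39* (1.02) and *Cyp2c55* (0.600) CPM per kilobase. Neighbours whose libraries overlapped were *Cyp2c29* and *Cyp2c50*, *Cyp2c37* and *Cyp2c54*, *Cyp2c40* and *Cyp2c39*, and *Cyp2c39* and *Cyp2c55*. With ISOGK the levels per kilobase ran from *Cyp2c50* (351) and *Cyp2c29* (333) to *Cyp2c55* (0.181), and these neighbours had changed places: *Cyp2c50* with *Cyp2c29*, *Cyp2c68* with *Cyp2c44*, and *Cyp2c39* with *Cyp2c40*. In each of these pairs the ISOGK libraries overlapped. *Cyp2c29*, *Cyp2c50* and *Cyp2c37* together made up 69.0% to 72.3% of the members' counts with vehicle and 70.1% to 73.1% with ISOGK, and the share of each single member overlapped between the groups, with these exceptions: the scarce *Cyp2c39*, with 0.0236% to 0.0774% against 0.127% to 0.233%, and *Cyp2c55*, with 0.0262% to 0.0535% against 0.00432% to 0.0219%.

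**Figure D4:**
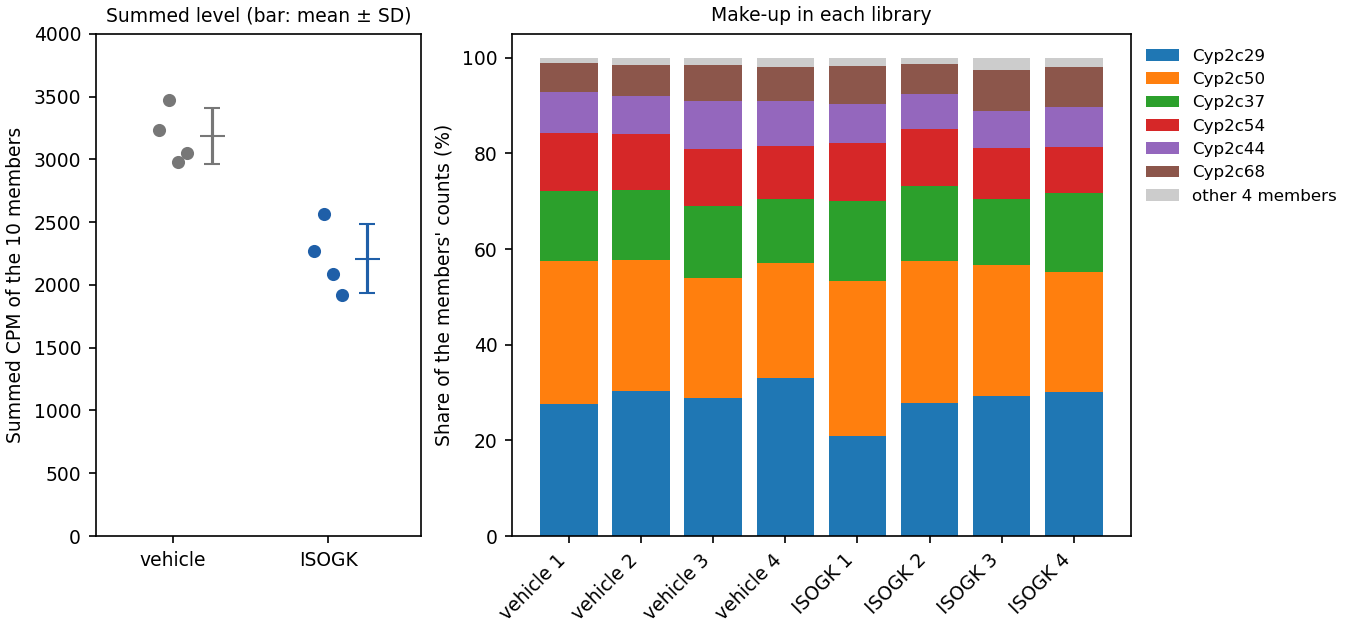
Left, summed CPM of the 10 members per library (points) with the group mean and SD (bars; n = 4); all ISOGK libraries (1918 to 2561) lie below all vehicle libraries (2975 to 3476). Right, percent of the members' counts held by each of the 6 most abundant members and by the other 4, in each library; Cyp2c29, Cyp2c50 and Cyp2c37 hold 69.0% to 73.1% in every library.

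Outside the 10, the table held 3 further *Cyp2c* genes. *Cyp2c70*, which makes muricholic bile acids and shares no 50-base window with other genes, fell from 389 to 554 CPM with vehicle to 225 to 381 CPM with ISOGK (log2 fold change -0.70 ± 0.18, SE, edgeR's adjusted p = 0.0358), a call lost without vehicle 1 or 2 or ISOGK 1, 2 or 3 (adjusted p up to 0.11). *Cyp2c67* had a log2 fold change of -0.27 (adjusted p = 0.365 by edgeR, or 0.0293 without ISOGK 1) and *Cyp2c69* of 0.54 (0.645, on 2 to 33 counts per library). Of the *Cyp2j* genes, a second family of arachidonate epoxygenases, 0 of 3 tested passed in either direction by edgeR, DESeq2 or limma-voom, and 1 had an unadjusted p under 0.05. *Cyp2j5*, the abundant hepatic and renal one, had a log2 fold change of -0.34 (edgeR's adjusted p = 0.107), with every ISOGK library below every vehicle library.

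The enzyme that removes EETs moved the other way. *Ephx2* rose from 718, 717, 764 and 783 CPM in vehicle libraries 1 to 4 to 1271, 1501, 1161 and 1266 CPM in ISOGK libraries 1 to 4. The groups were widely separate. The mean rose from 746 ± 33.5 to 1299.5 ± 144 CPM (SD, n = 4 each), a log2 fold change of 0.80 ± 0.10 (SE, edgeR's adjusted p = 0.00139), and the call held in all 16 alternatives. The microsomal hydrolase *Ephx1* did not pass (0.29, edgeR's adjusted p = 0.156), so 1 of 2 epoxide hydrolases tested was higher and 0 lower.

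Of 12 omega-hydroxylase genes tested, 5 were higher and 1 lower (7 and 1 by DESeq2). Their enzymes oxidise fatty acids, and some turn arachidonate into hydroxyeicosatetraenoic acids. How far each acts on arachidonate was not measured. *Cyp4a14* had the smallest adjusted p of the list, at 1255 ± 171 CPM with vehicle and 5458 ± 714 CPM with ISOGK (SD, n = 4 each), a log2 fold change of 2.12 ± 0.13 (SE, edgeR's adjusted p = 1.04e-05). *Cyp4a10* (2.02), *Cyp4a31* (2.37), *Cyp4a32* (1.66) and *Cyp4f17* (0.79) also rose on the log2 scale, and *Cyp4f14*, a leukotriene hydroxylase, fell by 0.76. *Cyp4f17* did not pass without vehicle 2 (adjusted p = 0.052). Of 10 tested genes for release of arachidonate and for its cyclooxygenase and lipoxygenase routes, 1 was lower, the lysosomal phospholipase *Pla2g15* (-0.46, edgeR's adjusted p = 0.0461), and 0 were higher. The call of *Pla2g15* was lost by limma-voom and without any library other than ISOGK 1 (adjusted p up to 0.131).

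Of the 5 electron donors, 1 was lower and 0 higher by edgeR (2 and 0 by DESeq2). *Cyb5b*, the outer mitochondrial cytochrome b5, fell by 0.73 on the log2 scale (edgeR's adjusted p = 0.00178). *Cyb5a*, the other cytochrome b5 gene of the list, had a log2 fold change of 0.13 (edgeR's adjusted p = 0.501), and *Por* of -0.09 (0.699). Of 9 genes for haem synthesis and breakdown none passed edgeR's test, that is 0 in each direction (1 higher and 1 lower at an unadjusted p under 0.05, and 1, *Fech*, lower by DESeq2). *Alas1*, the rate-limiting step, had a log2 fold change of 0.80 with a wide error (SE 0.37; edgeR's adjusted p = 0.237).

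Among 20 regulators of *Cyp2c* genes, 1 was lower and 2 were higher. *Nr1i3*, which encodes CAR, rose from 69.2, 70.6, 83.3 and 75.0 CPM with vehicle to 93.98, 85.03, 124 and 105 CPM with ISOGK (log2 fold change 0.45 ± 0.12, SE, edgeR's adjusted p = 0.0415). No ISOGK library overlapped the vehicle libraries, but the call was lost with library size alone and without any 1 vehicle library or ISOGK 3 or 4 (adjusted p up to 0.153). *Esr1*, the oestrogen receptor alpha, rose (0.72, adjusted p = 0.0281 by edgeR, at most 0.0835 in the alternatives) and *Nr3c1*, the glucocorticoid receptor, fell (-0.41, 0.0376, at most 0.121). The call of *Esr1* was lost with library size alone and without vehicle 1, 2 or 3 or ISOGK 2 or 4, and that of *Nr3c1* without vehicle 1, 2 or 3 or ISOGK 1, 2 or 4. *Nr1i2*, encoding PXR, was at -0.04 and *Hnf4a* at 0.05, neither past the test, and both changed sign in some alternatives. DESeq2 called 2 regulators lower, with *Cebpa* (C/EBP alpha) added, and limma-voom 2, with *Dbp* added. *Dbp*, a clock-controlled factor, was at 10.5 CPM in ISOGK 1 and at 0.369 to 0.681 CPM in the other ISOGK libraries, against 6.22 to 26.9 CPM with vehicle (log2 fold change -2.28, edgeR's adjusted p = 0.256). *Onecut1*, or HNF6, showed the same split, with 23.4 CPM in ISOGK 1, 4.56 to 5.48 CPM in the other 3 and 14.9 to 40.4 CPM with vehicle (-1.39, edgeR's adjusted p = 0.224). Of 18 CAR and PXR targets outside the *Cyp2c* family that could be tested, 4 were lower and 1 higher by edgeR (5 and 1 by DESeq2). *Cyp2b9* (-4.07), *Gstm3* (-2.28), *Cyp3a11* (-0.71) and *Gstm1* (-0.52) fell, and *Cyp3a13* (0.62) rose. *Cyp2b9* rests on 256 to 410 counts per vehicle library and 5 to 40 per ISOGK library. In ISOGK 1 (5 counts, 0.245 CPM with TMM factors) and ISOGK 4 (8 counts, 0.419 CPM) it was below the low-count limit of 0.471 CPM by library size alone. It passed the filter through its vehicle libraries, so its difference is given as a description. The calls of *Cyp3a11* (without any 1 vehicle library, ISOGK 1 or ISOGK 3, adjusted p up to 0.11), *Gstm1* (without vehicle 2, 3 or 4 or ISOGK 1 or 2, up to 0.107) and *Cyp3a13* (without vehicle 1, 3 or 4 or ISOGK 2, up to 0.0729) were lost in the ways named. The median log2 fold change of this list was -0.19.

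**Figure D5:**
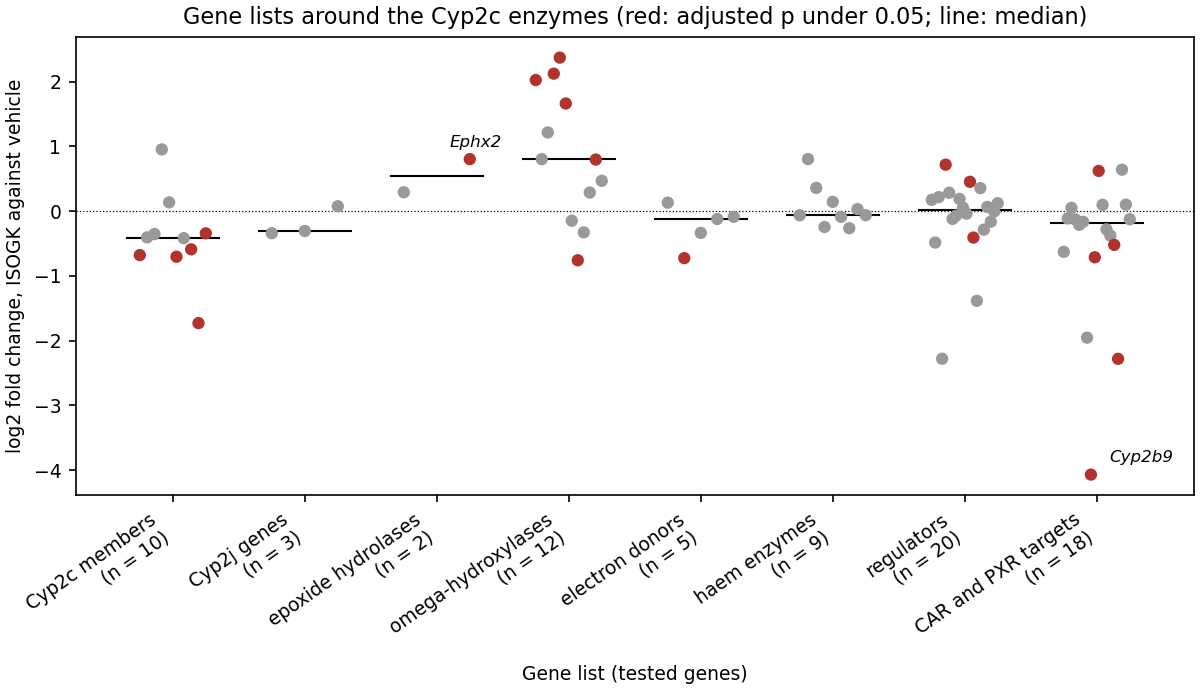
Log2 fold change with ISOGK (y axis; n = 4 per group) of every tested gene in the Cyp2c family and in lists of genes that act with it or control it (x axis; red, adjusted p under 0.05; line, median). The Cyp2c members have a median of -0.41, the omega-hydroxylases 0.80, and Ephx2 stands at 0.80.

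Genes biased to a sex or a liver zone were counted beside the family, since several *Cyp2c* genes are known to follow both. Of female-biased genes 1 of 3 tested was lower (*Cyp2b9*, which passed the filter through its vehicle libraries). Of male-biased ones 1 of 10 was higher (*Cyp2d9*, 0.53), and 0 went the opposite way in either list by edgeR. By DESeq2 6 male-biased genes were higher and 2 lower. Of 9 pericentral genes *Cyp1a2* fell (-0.48) and *Oat* rose (0.57), and of 10 periportal genes *Arg1* (0.48) and *Hal* (0.58) rose. *Glul*, the defining pericentral enzyme, had a log2 fold change of 0.05. The calls of *Cyp2d9*, *Oat*, *Arg1* and *Hal* held in 4, 6, 10 and 11 of 16 alternatives.

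Markers of other cell types were summed in the same libraries. Kupffer cell and macrophage markers summed to 1222 to 1571 CPM with vehicle and 995 to 1261 CPM with ISOGK, with *Cd68* the 1 of 8 that was lower (-0.57, edgeR's adjusted p = 0.009) and 7 of 8 log2 fold changes negative. By edgeR, endothelial markers (0 of 7 called, 1 at an unadjusted p under 0.05) summed to 371 to 409 against 359 to 407 CPM, and stellate cell markers (0 of 8, 1 at an unadjusted p under 0.05 and 1 by DESeq2) to 356 to 490 against 280 to 524 CPM. Cholangiocyte markers summed to 27.8 to 35.02 against 28.3 to 69.4 CPM, with *Sox9* the 1 of 5 that was higher (0.51, a call held in 4 of 16 alternatives). Lymphocyte markers (0 of 3 called, 0 at an unadjusted p under 0.05) summed to at most 4.81 CPM in any library. None of the muscle or adipocyte markers was tested, and the adipocyte sum was at most 0.581 CPM. Of the enterocyte markers *Apoa4*, also made by hepatocytes, rose (1.46), with sums of 206 to 244 against 403 to 750 CPM. Of the kidney markers *Lrp2* was called higher (2.63), at sums of 0.119 to 0.389 against 0.995 to 2.15 CPM. With vehicle, *Lrp2* had 3 to 10 reads and stayed below the low-count limit of 0.471 CPM by library size alone in every library. With ISOGK it had 19 to 38 reads. Only ISOGK libraries carried *Lrp2* past the filter, so it could not have come out lower, and its value is descriptive. Whether any of these cell types had a part in the *Cyp2c* values was not tested.

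The genes most like the extreme members over the 8 libraries, outside the *Cyp2c* family, were described by Pearson's r of log2 CPM, with no test, since the libraries share groups and scaling. For *Cyp2c39* they were *Gramd1c* (0.944, or 0.902 within the groups), *Bhmt* (0.942), *Plce1* (0.939), *Fry* (0.931) and *Rab35* (0.927). For *Cyp2c55* they were *Unc13a* (0.971, or 0.915 within the groups), *Timd2* (0.969), *Afm* (0.966), *Gpbp1l1* (0.957) and *Yy1* (0.946). None of these 10 genes passed the test between the groups.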

How the data were processed

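Liver RNA of 8 *Apoe-/-* mice was sequenced as single-end Illumina reads, and 1 table was deposited. The authors used HISAT2 for alignment and StringTie for counting reads on genes. The deposited counts are whole numbers, not normalized (build mm10 per the labels). The annotation release and the use of strand are not given in the sources used here. Groups follow the labels, which give 1 library a mouse. Without that, p-values measure only the spread between libraries. The columns headed DMSO were taken as the vehicle group.

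Low genes were dropped by filterByExpr of edgeR (minimum count 10, total 15), which left 12307 of 16540, and the rest were scaled by TMM and fitted with edgeR 4.0.16 (glmQLFit, robust; R 4.3.3) on group alone, with Benjamini-Hochberg adjustment over all genes tested. A call is an adjusted p under 0.05. The common biological coefficient of variation was 0.164. Log2 CPM used a prior count of 2. Totals had a median of 22491015.5 (vehicle) and 20388334 (ISOGK). The procedure was tested on simulated data.

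Members and gene lists were chosen with earlier results of these data known, so no list is independent evidence. Named were all members and other *Cyp2c* genes, up to 4 genes per list with the smallest adjusted p, and *Por*, *Ephx1*, *Ephx2*, *Nr1i2*, *Nr1i3*, *Hnf4a* and *Alas1*; *Cyp4f14*, *Cyp4f17*, *Cyp3a11*, *Fech*, *Glul*, *Cebpa*, *Dbp*, *Onecut1*, *Fgb*, *Hp* and *Vsig4* were added after their values were seen. Close copies were those with coding sequences at least 85% identical (GENCODE M21); promoters came from RefSeq (GRCm38.p6). Alternatives were DESeq2 1.42.0, limma-voom (limma 3.58.1), edgeR with RLE factors or with plain library sizes, other filters, no robust option, a replicate block, summed close copies, and each library left out in turn.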

Additional observations from a re-analysis of the deposited data

Results flagged for a closer look

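In 106 groups of 4 libraries (13 *Cyp2c* genes and 40 other named genes, 2 groups each) 10 had a library far from the others, where 5.3 would be expected by chance. *Fgb*, *Hp*, *Dbp* and *Onecut1* were named because a library stood apart in them, so those 4 cannot be set against chance. *Cyp2c55* was at 0.0981 CPM in ISOGK 1, against 0.419 to 0.475 CPM in the other ISOGK libraries, a gap of 0.852 of the group's range. That value is 2 counts. Without ISOGK 1 *Cyp2c55* did not pass the test. *Cyp2c68* was at 196 CPM in vehicle 1, against 221 to 225 CPM in the other vehicle libraries, a gap of 0.866 of the range. Its call was kept without vehicle 1. Outside the *Cyp2c* genes, ISOGK 4 was high in *Fgb* (16848 CPM against 6707 to 7042 CPM in the other ISOGK libraries), *Hp* (11163 against 3759 to 4851 CPM) and *Gstm1* (760 against 610 to 631 CPM). ISOGK 1 was high in *Dbp* (10.5 against 0.369 to 0.681 CPM) and *Onecut1* (23.4 against 4.56 to 5.48 CPM). *Cyp4f17* was high in vehicle 4 (8.44 against 6.72 to 6.85 CPM) and in ISOGK 2 (16.7 against 10.6 to 11.5 CPM), and *Ephx1* was low in ISOGK 3 (234 against 289 to 297 CPM).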

How the results depend on the processing

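*Cyp2c44* and *Cyp2c29* were called lower in all 16 alternatives, and *Cyp2c54*, *Cyp2c68* and *Cyp2c55* in 11 of 16, 9 of 16 and 7 of 15. The number of members called lower, 5, was 2 to 5 with a library left out and 4 to 6 under the other alternatives. These counts include *Cyp2c55* wherever it was called, and for that gene they are a description. The number past both thresholds, 1, was 0 by limma-voom, with at least 10 counts in every library (which removes *Cyp2c55*), and with the replicate block, and 0 to 1 with a library left out. Members called higher stayed at 0 in every alternative. Over the lists without *Cyp2c* genes 10 genes were lower and 16 higher. DESeq2 gave 18 and 25, library size alone 18 and 9, and leaving out a library 6 to 13 and 8 to 19. Over all genes DESeq2 called 670 lower and 765 higher, and leaving out a library gave 160 to 523 lower and 219 to 712 higher. Signs turned for *Cyp2c40* (-0.19 to 0.28 with a library left out, negative without ISOGK 1), *Nr1i2* (-0.14 to 0.049, positive without vehicle 2, ISOGK 3 at 0.0011 or ISOGK 4 at 0.013) and *Hnf4a* (-0.018 to 0.11, negative without ISOGK 1, and -0.076 with library size alone), none of them called. The cause was not tested. The summed log2 difference was -0.53, or -0.66 with library size alone and -0.61 to -0.47 with a library left out. Summed close copies, chosen after seeing the data, gave 3 of 5 groups lower, and 2 to 4 in the alternatives (single genes in the main fit: 3.44% lower). *Cyp2c55*, a group alone, is 1 of the 3 and had to be lower, since it entered the test through its vehicle libraries. The others are *Cyp2c44* and the sum of *Cyp2c29*, *Cyp2c38* and *Cyp2c39*. Same-numbered libraries correlated at -0.014 to 0.085 after group means were removed, so the numbers were not taken as pairs. With the replicate number as a block 5 members were called (*Cyp2c29*, *Cyp2c37*, *Cyp2c44*, *Cyp2c50* and *Cyp2c54*), and so was the sum of *Cyp2c37*, *Cyp2c50* and *Cyp2c54* (edgeR's adjusted p = 0.0278). Under the block *Cyp2c55* (0.0561), *Cyp2c68* (0.0728), *Cyp2c70* (0.0635), *Nr3c1* (0.0599), *Cyp2d9* (0.0769) and *Sox9* (0.0916) were not called. It changed the call of no other named gene fitted with it. The planned grouping by protein identity was not run. *Cyp2c55* rests on 2 to 9 counts per ISOGK library and *Cyp2c69* on 2 to 33 per library.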
